A study of Mus musculus with 18 samples.

Results

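The tumour necrosis factor (TNF) superfamily and its receptors were followed in mouse T cells that carried or lacked G9a, the enzyme encoded by Ehmt2 that methylates lysine 9 of histone H3. Members were all rows of the RNA table whose symbol begins with Tnfrsf or Tnfsf, plus Cd40lg, Cd40, Cd27, Cd70, Fas, Fasl, Tnf, Lta, Ltb and Ltbr. They came to 41 of the 23234 gene symbols of the table, 17 ligands and 24 receptors. Of the 41, 30 averaged 0.5 FPKM or more over the 10 RNA libraries and were tested. FPKM scales the fragments of a gene to the length of its model and to the fragments mapped, so that levels of different genes can be compared.

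All cells came from C57BL/6 mice. T cells for RNA came from spleen and lymph nodes, after an expansion of 4 weeks where lymphocytes were few. The G9a knockout cells carrying both CD4 and CD8 are called KO DP (n = 4). The G9a knockout cells with CD8 and without CD4 are called KO SP (n = 2), and G9a wild-type cells with CD8 and without CD4 are called WT SP (n = 4). H3K9me3, a histone mark of silent chromatin, was mapped in spleen CD8 T cells cultured with antibodies to CD3 and CD28, with 2 libraries from Ehmt2-/- cells (KO) and 2 from Ehmt2+/+ cells (WT). The sources used here do not give the driver of the deletion, the age of the mice or the host of the expanding cells. No wild-type cells with CD4 were analysed here, so in KO DP against WT SP the genotype and the coreceptor phenotype cannot be told apart. In bulk samples, fewer cells of a type and less RNA per cell cannot be told apart either.

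TNF superfamily ligands are mostly membrane-bound trimers on activated T cells and antigen-presenting cells, and they cluster receptors on the cell they touch. Receptors without a death domain, such as OX40, GITR, CD27 and CD137, recruit TRAF adaptors, switch on NF-kB and act as costimulators of T cells. Receptors with a death domain, such as Fas, can also start caspase cleavage. CD40 ligand is the classical helper signal of CD4 T cells to B cells and dendritic cells.

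The labels were checked on the libraries first. Cd4 lay at 49.4 to 178 FPKM in KO DP, at 0.192 to 0.222 in KO SP and at 0.144 to 0.495 in WT SP. Cd8b1, a chain of CD8, lay at 248 to 904 FPKM in KO DP, at 1344 to 1477 in KO SP and at 1180 to 1511 in WT SP. Ehmt2 averaged 16.1 ± 7.48 FPKM (SD, n = 4) in KO DP, 13.1 ± 0.686 (n = 2) in KO SP and 27.3 ± 10.8 (n = 4) in WT SP, with an adjusted p of 0.205 for KO DP and 0.938 for KO SP against WT SP (limma). The sources used here do not give the deleted part of Ehmt2, so this level is a limited check of the genotype. The FPKM columns summed to 292872 and 183632 in replicates 3 and 4 of KO DP, against 441903 to 504013 in the other 8 libraries. The smallest steps between low values gave a relative depth that was 1.19 and 1.14 times that of KO SP replicate 1 in those libraries and 0.800 to 1.57 times over all 10. The median of all tested genes lay at -0.38 on the log2 scale in KO DP against WT SP and at -0.43 in KO DP against KO SP. Library titles fall into the number ranges 34 to 37 (KO DP and WT SP, replicates 1 and 2 of each) and 738 to 741 (all others, with both KO SP libraries). The titles also move with other cells: the 6 erythroid markers summed to 468 to 1213 FPKM in titles 34 to 37 and to 1.32 to 57.3 in titles 738 to 741. The 5 natural killer cell markers summed to 8.98 to 46.1 FPKM in KO DP, 39.9 to 52.4 in KO SP and 34.3 to 79.9 in WT SP, and the 7 dendritic cell markers to 7.16 to 13.5, 16.4 to 29.3 and 7.69 to 40.1. The part of these cells in the results was not tested. Values after median-ratio scaling, which removes the shift, and within the ranges stand beside the values as deposited.

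Promoter sequences of 3 members are shown because Tnfrsf4 and Tnfrsf18 are neighbours on chromosome 4 whose RNA behaved differently, and because Tnfsf11 had one of the largest differences. Tnfrsf4 encodes OX40 and Tnfrsf18 encodes GITR, both costimulatory receptors, and Tnfsf11 encodes RANK ligand. Each sequence is the 250 bases before the gene's start in RefSeq, on GRCm38.p6 and on the gene's own strand. They lie at chr4:156013445-156013694 (plus strand) for Tnfrsf4, chr4:156026072-156026321 (plus strand) for Tnfrsf18 and chr14:78308044-78308293 (minus strand) for Tnfsf11. Capitals mark matches to 3 motifs searched on both strands: GGG and CC with any 5 bases between them (NF-kB type), TGANTCA (AP-1 type) and TGTGGT (RUNX type).
Tnfrsf4: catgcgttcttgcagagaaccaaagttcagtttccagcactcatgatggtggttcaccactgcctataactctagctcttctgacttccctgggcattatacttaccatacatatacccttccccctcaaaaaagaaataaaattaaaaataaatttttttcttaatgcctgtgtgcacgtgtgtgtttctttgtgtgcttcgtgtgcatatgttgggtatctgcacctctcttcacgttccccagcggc
Tnfrsf18: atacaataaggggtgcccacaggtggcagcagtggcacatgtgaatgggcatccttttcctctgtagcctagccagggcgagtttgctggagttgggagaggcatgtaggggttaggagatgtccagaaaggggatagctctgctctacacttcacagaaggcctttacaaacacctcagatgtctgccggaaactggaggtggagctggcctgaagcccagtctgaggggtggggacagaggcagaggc
Tnfsf11: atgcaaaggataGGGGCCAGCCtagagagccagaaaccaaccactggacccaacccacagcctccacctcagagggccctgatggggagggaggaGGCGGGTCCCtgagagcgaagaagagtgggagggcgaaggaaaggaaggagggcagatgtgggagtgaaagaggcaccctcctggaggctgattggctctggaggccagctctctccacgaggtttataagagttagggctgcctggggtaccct
Tnfsf11 held 2 matches, both to the NF-kB type motif, 238 and 155 bases before the start. The windows of Tnfrsf4 and Tnfrsf18 held none of the 3 motifs. No match says only that these letters are not in this window.

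The promoter table held 31 of the 41 members, with 35 windows. The NF-kB type motif occurred in 22 of the 35 windows (62.9%), against 45.8% of all 32851 windows of the same length. TGANTCA occurred in 6 of the 35 (17.1%), against 6.75% of all, namely in Fas, Tnfrsf8, Tnfrsf9, Tnfsf13, Tnfsf13b and Tnfsf14. TGTGGT occurred in 3 (8.57%), against 14.0% of all. A match is a description of the letters and not of a bound site.

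The order of levels was much the same at the top of each group and differed lower down. Ltb, a chain of the membrane-bound lymphotoxin that organises lymphoid tissue, had the highest mean FPKM of the 41 members in every group: 337 ± 216 in KO DP (SD, n = 4), 569.96 ± 32.5 in KO SP (n = 2) and 502 ± 115 in WT SP (n = 4). Tnfrsf18 and Cd27, the receptor of Cd70, took the next places in each group. Their means were 136 ± 70.8 and 119.6 ± 47.0 FPKM in KO DP and 146 ± 13.5 and 253 ± 3.45 in KO SP, against 99.5 ± 24.3 and 232 ± 37.7 in WT SP. In KO DP the means of Tnfrsf18 and Cd27 differed by less than either SD, so their order there does not exceed the spread. Tnfrsf4 stood in place 4 among the members in KO DP, in place 22 in KO SP and in place 21 in WT SP. Cd40lg stood in places 11, 20 and 25, and Tnfsf11 in places 13, 26 and 30, of KO DP, KO SP and WT SP in that order.

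The first comparison set KO DP against WT SP. Tnfrsf4, Cd40lg and Tnfsf11 were higher in KO DP by more than 3 on the log2(FPKM + 1) scale, and 3 more members, Tnfrsf25, Tnfsf13b and Tnfsf14, were higher by less. Tnfrsf26 was the 1 member called lower. In all, 6 of the 30 tested members were called higher and 1 lower at an adjusted p under 0.05 (limma, Benjamini-Hochberg over the 11162 genes tested). Whether the libraries of a group came from different mice is not in the labels, so the p-values reflect the spread among these libraries, which may be technical. Of all 11162 genes, 2.86% were called higher and 5.03% lower. The median of the 30 members lay at 0.19, against -0.38 for all genes. Every KO DP library lay above every WT SP library in 6 members, the 6 called higher, against 3.4% of all genes, and below in 3 (Cd27, Tnfrsf10b and Tnfrsf26), against 13.1%. The members called were 4 of 13 tested ligands, 1 of 6 costimulatory receptors, 1 of 5 death domain receptors, 0 of 3 receptors of B cells, antigen-presenting cells and stroma, and 1 of 3 other receptors.

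**Figure D1:**
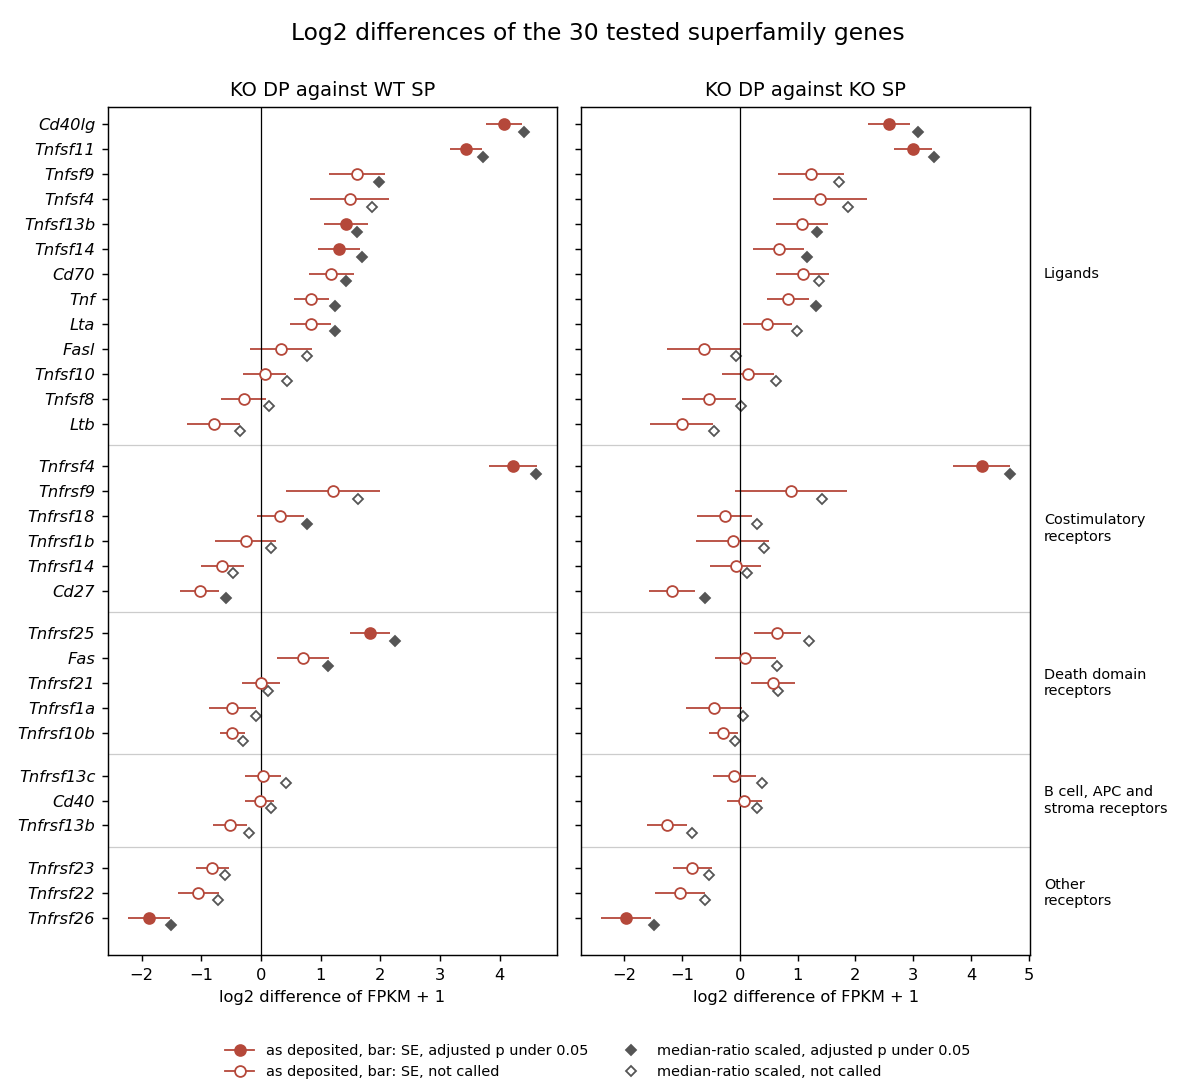
Log2 differences of FPKM + 1 (horizontal axis) of the 30 tested members, grouped by role, in KO DP against WT SP (left) and KO DP against KO SP (right). Circles are values as deposited with their SE, diamonds are values after median-ratio scaling, and filled symbols have an adjusted p under 0.05; Tnfrsf4, Cd40lg and Tnfsf11 stand far to the right in both panels and Tnfrsf26 to the left.

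After median-ratio scaling 12 members were called higher and 2 lower, against 9.7% and 7.89% of all genes. The added members were Tnfsf9, Cd70, Tnf, Lta, Tnfrsf18 and Fas, called higher, and Cd27, called lower. Within titles 34 to 37 alone, with 2 libraries a group, 3 members were higher (Cd40lg, Tnfsf11 and Fas) and none lower, against 0.448% and 0.206% of all genes. Within titles 738 to 741 alone, 9 were higher and 9 lower, against 6.66% and 28.1% of all genes. The difference between the ranges itself, an interaction term in limma, passed for 6 members, against 22.9% of all genes, and for none after scaling, against 0.314%. With a block for the replicate number of the descriptions, 8 were higher and 1 lower, with Cd70 and Tnfsf9 added, against 4.8% and 8.05% of all genes. With KO DP replicates 1 and 2 only, which leaves out the libraries of low FPKM sum, 7 were higher and none lower, against 4.95% and 2.53% of all genes, and Tnfrsf26 had an adjusted p of 0.0576.

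Among ligands, Cd40lg, the helper signal to B cells, had 28.5, 36.7, 33.5 and 17.3 FPKM in KO DP and 4.19 and 3.47 in KO SP, against 0.838, 0.178, 0.814 and 1.20 in WT SP. The 3 groups did not overlap, with KO SP between the others. On the log2 scale, KO DP differed from WT SP by 4.08 ± 0.30 (SE; adjusted p = 1.57e-05, limma), and 4.50 and 3.66 within titles 34 to 37 and 738 to 741. Cd40lg lies on the X chromosome, and Xist, the RNA of the inactive X, ranged over 1.88 to 4.58 FPKM in KO DP and KO SP, against at most 0.0338 in WT SP. In both comparisons with WT SP, genotype and this difference cannot be told apart for any member, whereas KO DP and KO SP both carried Xist.

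Tnfsf11, RANK ligand, which acts on dendritic cells and osteoclast precursors, had 16.7, 17.8, 11.1 and 7.73 FPKM in KO DP and 0.738 and 0.695 in KO SP, against 0.409, 0.274, 0.210 and 0.171 in WT SP. The lowest KO DP library exceeded the highest of the others by a wide margin, and KO SP lay above every WT SP library. The log2 difference of KO DP to WT SP was 3.44 ± 0.27 (SE; adjusted p = 2.11e-05, limma), 3.77 within titles 34 to 37 and 3.11 within 738 to 741. The ratio of the group means was 50.1, which the added 1 FPKM of the log scale compresses.

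Tnfsf13b (BAFF), a survival factor of B cells, had 5.07, 4.02, 1.41 and 1.07 FPKM in KO DP and 1.30 and 0.215 in KO SP, against 0.216, 0.591, 0.0237 and 0.465 in WT SP. KO DP lay above WT SP in every library and overlapped with KO SP. On the log2 scale, KO DP differed from WT SP by 1.43 ± 0.37 (SE; adjusted p = 0.0368, limma). The difference was 1.99 within titles 34 to 37 (adjusted p = 0.0765) and 0.87 within 738 to 741 (0.0201, limma). Leaving out KO DP replicate 1, 2 or 3, KO SP replicate 2, or WT SP replicate 1, 3 or 4 ended the call, with adjusted p of 0.0558, 0.0685, 0.0516, 0.0505, 0.0948, 0.123 and 0.0832 in that order. Macrophages are a known source of BAFF. Summed over the 9 myeloid markers in the table (of 10 listed), FPKM was 182 and 131 in KO DP replicates 1 and 2, 18.2 and 17.0 in KO DP replicates 3 and 4, 18.7 to 35.4 in KO SP and 14.2 to 194 in WT SP. The complement gene C1qb, which defines macrophages, was above 0 in every library, at 0.601 to 42.1 FPKM in KO DP and at 1.99 to 25.5 in WT SP. The part of such cells in the level of Tnfsf13b was not tested.

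Tnfsf14 (LIGHT), which binds Tnfrsf14 and the lymphotoxin beta receptor, had 18.5, 17.1, 8.76 and 5.85 FPKM in KO DP and 7.19 and 6.37 in KO SP, against 4.66, 5.74, 3.39 and 2.73 in WT SP. KO DP replicate 4 lay just above the highest WT SP library and below both KO SP libraries. The log2 difference of KO DP to WT SP was 1.31 ± 0.36 (SE; adjusted p = 0.0463, limma). It was 1.60 within titles 34 to 37 (adjusted p = 0.0826) and 1.01 within 738 to 741 (0.0547, limma). With only the 2 groups compared in the fit, the adjusted p was 0.0801 (limma). Leaving out 1 library ended the call for KO DP replicate 1 (adjusted p = 0.0690), 2 (0.0803) or 3 (0.0927), either KO SP library (0.0795 and 0.0798), or WT SP replicate 1 (0.0962), 3 (0.146) or 4 (0.145).

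Tnfsf8 (CD30 ligand) had 42.7, 47.0, 27.1 and 24.4 FPKM in KO DP and 41.9 and 58.1 in KO SP, against 44.6, 19.3, 61.0 and 57.3 in WT SP. The groups overlapped, and WT SP replicate 2 was the lowest of the 10 libraries. On the log2 scale, KO DP differed from WT SP by -0.29 ± 0.38 (SE; adjusted p = 0.599, limma), 0.14 after scaling, 0.59 within titles 34 to 37 and -1.17 within 738 to 741, so its sign depended on the scaling and on the range.

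**Figure D2:**
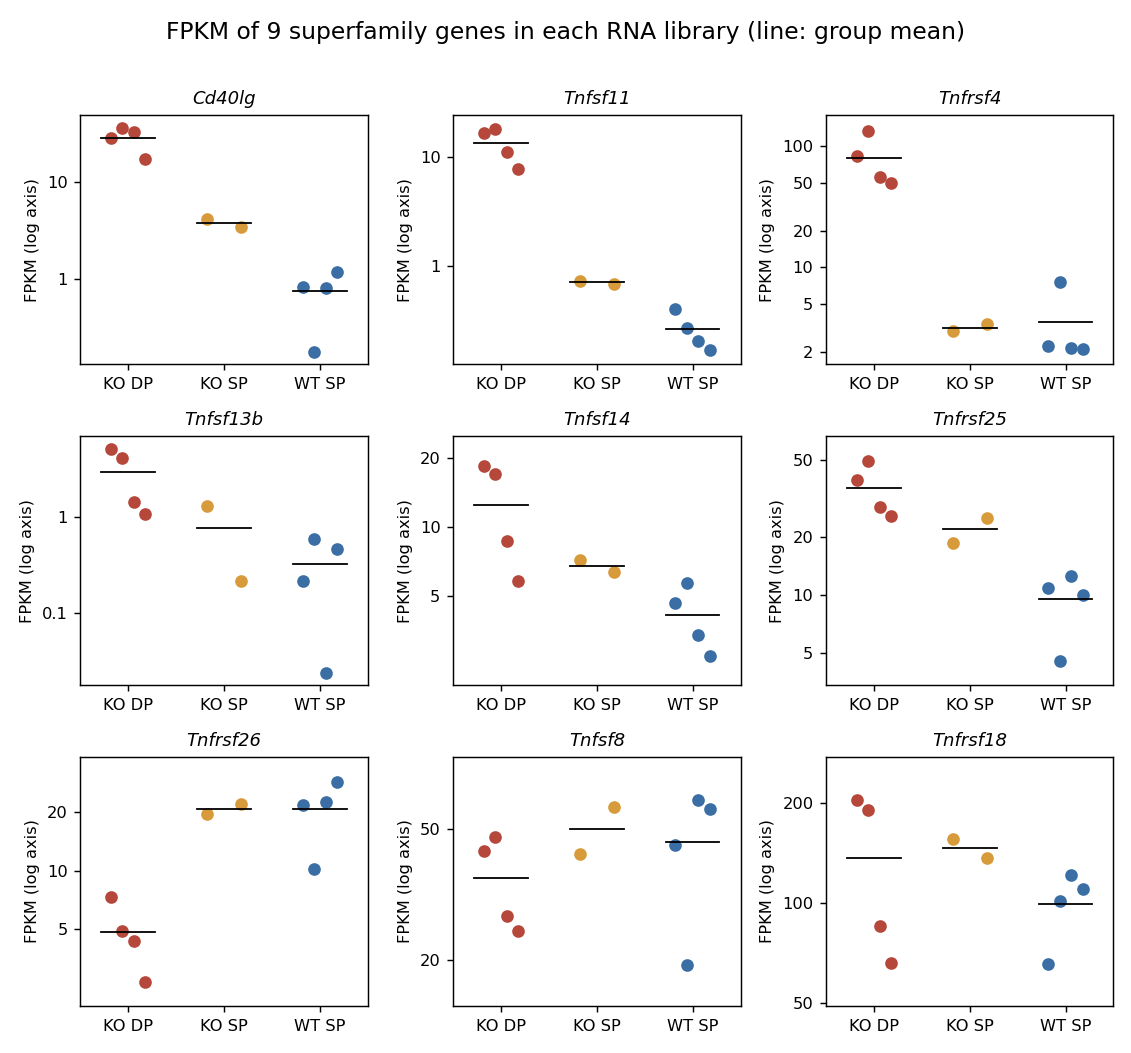
FPKM (vertical log axis) of 9 members in each library, with 4 KO DP, 2 KO SP and 4 WT SP points from left to right and the group mean as a line. Cd40lg falls into 3 separate levels (17.3 to 36.7, 3.47 to 4.19 and 0.178 to 1.20 FPKM), Tnfrsf4 is high in KO DP alone of these groups, and Tnfsf8 and Tnfrsf18 overlap between KO DP and both other groups.

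Of the ligands that were not called as deposited, Tnfsf9, the ligand of CD137, lay at 8.29 to 16.9 FPKM in KO DP, 2.50 and 7.47 in KO SP, and 1.04 to 8.83 in WT SP. Cd70, the ligand of Cd27, lay at 0.290 to 4.20 FPKM in KO DP, 0.201 and 0.348 in KO SP, and 0 to 0.801 in WT SP, with WT SP replicates 3 and 4 listed at 0. An exact 0 in a table without counts can be a failed estimate. Tnf and Lta, which encode cytokines of the family, lay at 6.74 to 15.8 and 11.1 to 17.6 FPKM in KO DP. They lay at 4.87 to 6.53 and 8.05 to 11.6 in KO SP, and 3.71 to 7.07 and 3.19 to 11.5 in WT SP. These 4 ligands were called higher after scaling, with adjusted p of 0.0159 for Tnfsf9, 0.0379 for Cd70, 0.00503 for Tnf and 0.0332 for Lta (limma). Fasl, the trigger of Fas, and Tnfsf10 (TRAIL), another death ligand, overlapped between all groups, at 17.5 to 94.2 and 3.57 to 12.8 FPKM over the 10 libraries.

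Among costimulatory receptors, Tnfrsf4 (OX40), which appears on activated CD4 T cells and regulatory T cells, had 83.6, 134, 56.2 and 49.5 FPKM in KO DP and 2.98 and 3.37 in KO SP, against 2.23, 7.52, 2.16 and 2.12 in WT SP. KO DP did not overlap with the other groups, and KO SP lay within the range of WT SP. The log2 difference of KO DP to WT SP was 4.22 ± 0.40 (SE; adjusted p = 9.33e-05, limma), with 4.35 within titles 34 to 37 (adjusted p = 0.111 with 2 libraries a group) and 4.10 within 738 to 741 (adjusted p = 0.00109). Foxp3, the factor that defines regulatory T cells, lay at 3.52 to 28.3 FPKM in KO DP, with 3.52 and 4.94 in replicates 3 and 4, and was listed at 0 in all KO SP and WT SP libraries. Summed over the 7 regulatory T cell markers in the table (of 8 listed), FPKM was 30.7 to 142 in KO DP, 39.7 and 42.3 in KO SP, and 26.2 to 44.1 in WT SP. Nt5e alone lay at 5.96 to 15.6 FPKM in KO DP and 25.3 to 29.1 in KO SP, against 11.3 to 42.6 in WT SP, whereas Il2ra lay at 2.12 to 7.65 FPKM in KO DP and 1.06 to 1.998 in KO SP, against 0.529 to 1.69 in WT SP. Folr4 lay at 6.59 to 53.9 FPKM in KO DP, 6.80 to 10.5 in KO SP and 0.353 to 1.63 in WT SP. Ctla4 lay at 9.54 to 45.9, 2.60 to 4.34 and 0.513 to 11.8 in the same order. Ikzf2 lay at 1.27 to 3.64, 0.111 to 0.114 and 0.0450 to 1.42, and Lrrc32 was at most 0.242 in any library. The part of such cells in the level of Tnfrsf4 was not tested.

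Tnfrsf18 (GITR), the neighbour of Tnfrsf4, had 204, 190.2, 85.5 and 65.8 FPKM in KO DP and 156 and 137 in KO SP, against 65.2, 101, 122 and 109.9 in WT SP. KO DP replicates 1 and 2 were the highest of all libraries and replicates 3 and 4 among the lowest, so the groups overlapped. On the log2 scale, KO DP differed from WT SP by 0.32 ± 0.39 (SE; adjusted p = 0.565, limma). It was 0.76 after scaling, which passed the test (adjusted p = 0.0222), 1.27 within titles 34 to 37 and -0.62 within 738 to 741, so its sign differed between the ranges.

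Cd27, which sustains T cell survival, lay at 65.6 to 159 FPKM in KO DP, 250.3 and 255 in KO SP, and 179 to 269 in WT SP. KO DP lay below both other groups in every library, and Cd27 was not called as deposited and was called lower after scaling (adjusted p = 0.00993 against WT SP and 0.0449 against KO SP, limma). Tnfrsf14 (HVEM) lay at 0.282 to 2.50 FPKM in KO DP, 0.869 and 0.967 in KO SP, and 0.908 to 3.88 in WT SP. Tnfrsf8 (CD30), at most 1.32 FPKM, lay below the filter.

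WT SP replicate 2 stood apart from the other WT SP libraries in several costimulatory genes. Tnfrsf9 (CD137), an early activation receptor, had 41.4, 62.3, 25.5 and 18.4 FPKM in KO DP and 19.7 and 15.5 in KO SP, against 6.89, 118, 7.24 and 5.23 in WT SP. Tnfsf4, the ligand of OX40, had 15.5, 14.3, 9.40 and 8.65 FPKM in KO DP and 3.99 and 3.67 in KO SP, against 0.919, 25.2, 2.15 and 1.58 in WT SP. In both, WT SP replicate 2 was the highest of the 10 libraries and the other 3 WT SP libraries were the lowest. Without WT SP replicate 2, Tnfrsf9 (adjusted p = 0.00734), Tnfsf4 (0.00142), Tnfsf9 (0.0123) and Cd70 (0.0458) were called higher in KO DP, and the count became 10 higher and 3 lower (limma), against 4.58% and 5.94% of all genes. The same library was the highest of WT SP for Tnfrsf1b (TNF receptor type II) at 104 FPKM, Fasl at 94.2, Tnfrsf8 at 1.32 and Tnfrsf4 at 7.52, and among others the lowest for Cd40lg at 0.178, Tnfrsf25 at 4.58, Tnfrsf26 at 10.2 and Tnfsf8 at 19.3. Its FPKM sum, 481782, lay within the range of the other libraries. Its marker sums for myeloid cells (194 FPKM), dendritic cells (40.1) and natural killer cells (79.9) were the highest of the 10 libraries. Among the myeloid markers, Itgam reached 59.8 FPKM in WT SP, 5.38 in KO DP and 8.31 in KO SP. C1qa and Emr1 also had their highest value in WT SP, whereas Lyz2, C1qb, C1qc, Csf1r, Cd68 and Cd14 had theirs in KO DP. In WT SP, Eomes reached 78.1 FPKM and the other natural killer cell markers at most 0.989. Itgax reached 36.3 FPKM there and the other dendritic cell markers at most 1.52. The natural killer and dendritic sums thus rested mostly on single genes. The part of these cells in its member levels was not tested.

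**Figure D3:**
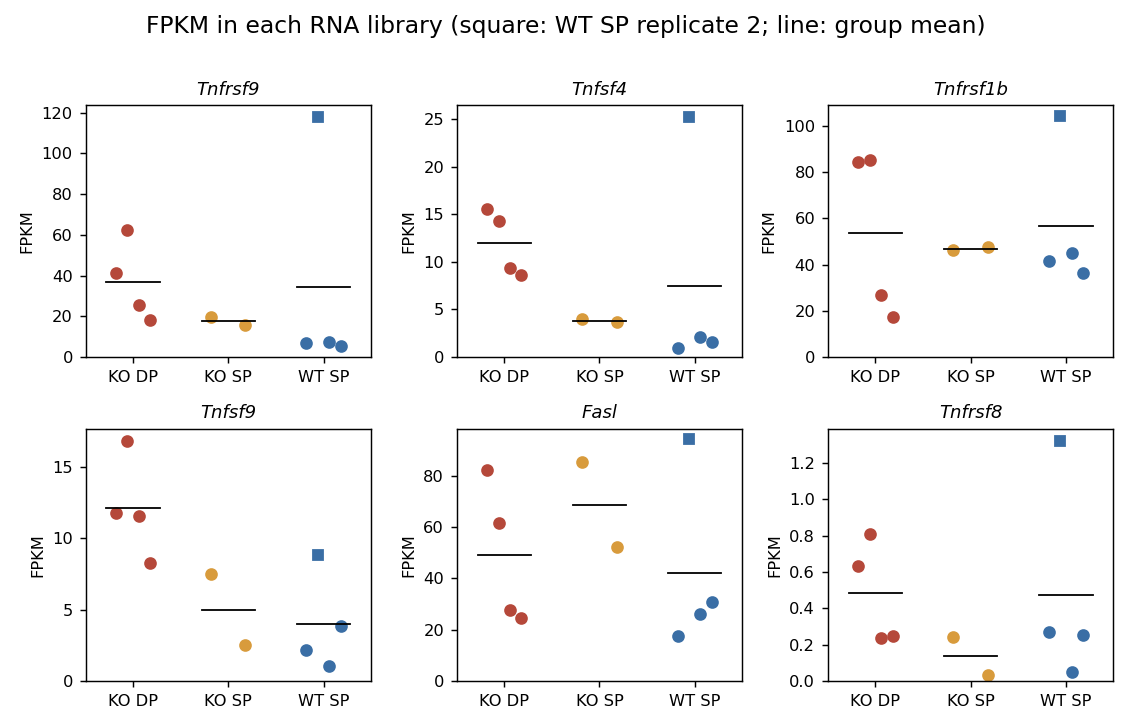
FPKM (vertical axis from 0) of 6 members in each library, KO DP, KO SP and WT SP from left to right, with WT SP replicate 2 as a square and the group mean as a line. The square lies at 118 FPKM for Tnfrsf9 and 25.2 for Tnfsf4, where the other 3 WT SP points lie at or below 7.24 and 2.15.

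Among receptors with a death domain, Tnfrsf25 (DR3), a receptor that costimulates T cells in spite of that domain, had 39.8, 49.5, 28.5 and 25.6 FPKM in KO DP and 18.7 and 25.2 in KO SP, against 11.0, 4.58, 12.5 and 10.1 in WT SP. The groups did not overlap, although KO DP replicate 4 and KO SP replicate 2 were close. The 7 gamma-delta and innate-like T cell markers summed to 28.2 to 86.8 FPKM in KO DP, 101 to 106 in KO SP and 4.00 to 6.86 in WT SP. Cd163l1 alone gave 19.2 to 65.0 FPKM in KO DP and 98.5 to 103 in KO SP, against 2.74 to 6.35 in WT SP, whereas Sox13 and Zbtb16 were at most 0.437 in any library. The part of such cells in the levels of Tnfrsf25 and Cd40lg was not tested. The log2 difference of KO DP to WT SP was 1.83 ± 0.33 (SE; adjusted p = 0.00808, limma), with 2.47 within titles 34 to 37 (adjusted p = 0.154) and 1.19 within 738 to 741 (adjusted p = 0.0430). Fas lay at 65.5 and 68.0 FPKM in KO DP replicates 1 and 2, at 24.9 and 16.1 in replicates 3 and 4, at 43.9 and 26.7 in KO SP, and at 19.6 to 24.8 in WT SP. It was called after scaling (adjusted p = 0.00760) and within titles 34 to 37 (0.0439). Tnfrsf1a (TNF receptor type I) lay at 4.43 to 19.8 FPKM over all libraries, and Tnfrsf10b (the TRAIL receptor) and Tnfrsf21 (DR6) at or below 1.74.

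The receptors found mostly on B cells, antigen-presenting cells and stroma were low. Tnfrsf13b (TACI) lay at 1.20 to 4.07 FPKM in KO DP, 7.22 and 7.36 in KO SP, and 3.32 to 5.13 in WT SP. Tnfrsf13c (BAFF receptor) lay at 2.22 to 6.29 and Cd40 at 0.269 to 1.32 over the 10 libraries. All 8 B cell markers were in the table, summing to 22.5 to 57.1 FPKM in KO DP, 49.4 to 69.1 in KO SP and 16.6 to 89.9 in WT SP. Cd79a, a chain of the B cell receptor, was above 0 in every library, at 1.97 to 17.9 FPKM. The part of such cells in these 3 receptors was not tested.

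The last group holds Tnfrsf22, Tnfrsf23 and Tnfrsf26, which lie next to one another on mouse chromosome 7. Tnfrsf22 and Tnfrsf23 are mouse decoy receptors of TRAIL. Tnfrsf26 had 7.34, 4.89, 4.32 and 2.68 FPKM in KO DP and 19.5 and 22.1 in KO SP, against 21.7, 10.2, 22.5 and 28.4 in WT SP. KO DP lay below every other library, with WT SP replicate 2 nearest to it. On the log2 scale, KO DP differed from WT SP by -1.88 ± 0.35 (SE; adjusted p = 0.00838, limma), -1.50 after scaling (adjusted p = 0.00616), -1.19 within titles 34 to 37 (adjusted p = 0.308) and -2.57 within 738 to 741. Tnfrsf22 lay at 1.40 to 3.85 FPKM in KO DP, 5.59 and 7.25 in KO SP, and 2.93 to 10.1 in WT SP. Tnfrsf23 lay at 0.403 to 0.836 FPKM in KO DP, 1.99 and 1.87 in KO SP, and 0.671 to 2.79 in WT SP. Both were called lower without WT SP replicate 2 (adjusted p = 0.0193 and 0.00994, limma).

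KO DP against KO SP compares cells of the same genotype that differ in CD4, and the titles 738 and 739 occur in both groups. Tnfrsf4, Tnfsf11 and Cd40lg were higher in KO DP, and Tnfrsf26 was lower. They were the 3 members called higher and the 1 called lower of 30, against 0.421% and 1.65% of all genes. The log2 difference was 4.18 ± 0.49 (SE) for Tnfrsf4 (adjusted p = 0.00147), 2.996 ± 0.33 for Tnfsf11 (0.00110), 2.59 ± 0.37 for Cd40lg (0.00488) and -1.97 ± 0.42 for Tnfrsf26 (0.0392, limma). Tnfrsf25, Tnfsf13b, Tnfsf14, Tnfrsf18 and Tnfsf8 were not called, at 0.65 ± 0.41, 1.07 ± 0.45, 0.67 ± 0.44, -0.26 ± 0.48 and -0.52 ± 0.47, and the last 2 lay at 0.30 and 0.0255 after scaling. KO DP lay above both KO SP libraries in 8 members, against 4.44% of all genes, and below both in 6, against 35.5%. This comparison shares the KO DP libraries with the one above, so its calls are not independent of it.

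After scaling, 6 members were higher and 2 lower, against 2.62% and 2.88% of all genes, with Tnf, Tnfsf13b, Tnfsf14 and Cd27 added. Within titles 738 to 741, 5 were higher and 11 lower, against 3.05% and 50.4% of all genes. The call of Cd40lg ended without KO SP replicate 1 (adjusted p = 0.0831) or 2 (0.121), each of which left KO SP with 1 library assumed to vary like the other groups. The call of Tnfrsf26 ended without KO DP replicate 2 (0.0646) or 3 (0.110), either KO SP library (0.317 and 0.420), or WT SP replicate 1 (0.0719), 3 (0.0654) or 4 (0.0553). Leaving out either KO SP library left 2 members called, Tnfrsf4 and Tnfsf11. With KO DP replicates 1 and 2 only, 4 were higher and none lower, against 2.39% and 1.73% of all genes.

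KO SP against WT SP compares knockout with wild-type cells of the same coreceptor phenotype, and the difference in Xist given above cannot be told apart from genotype here either. None of the 30 members was called higher or lower by limma, with or without a mean-variance trend, against 0.0717% and 0.0448% of all genes. At an unadjusted p under 0.05 there were 2 members, Cd40lg and Tnfrsf25, against 384 of 11162 genes. Cd40lg differed by 1.49 ± 0.37 (SE; adjusted p = 0.333) and Tnfrsf25 by 1.18 ± 0.41 (0.938) on the log2 scale. The other named members differed by 0.04 ± 0.49 for Tnfrsf4, 0.44 ± 0.33 for Tnfsf11, 0.64 ± 0.44 for Tnfsf14, 0.36 ± 0.45 for Tnfsf13b, 0.09 ± 0.42 for Tnfrsf26, 0.58 ± 0.48 for Tnfrsf18 and 0.23 ± 0.47 for Tnfsf8. Those of Tnfrsf4 and Tnfrsf26 lay at -0.0522 and -0.0265 after scaling. KO SP lay above every WT SP library in 7 members (Cd40lg, Fas, Tnfrsf13b, Tnfrsf18, Tnfrsf25, Tnfsf11 and Tnfsf14), a pattern that 21.1% of all genes showed, and below in 1 (Tnfrsf21), which 11.1% showed.

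Of the 11 members below the filter, 8 lay at or below 0.662 FPKM in every library, and the exceptions were Tnfrsf8, Tnfsf15 and Tnfrsf17. Tnfrsf11a (RANK), the receptor of Tnfsf11, had 0.514, 0.413, 0.620 and 0.662 FPKM in KO DP and 0.0807 and 0.109 in KO SP, against 0.154, 0.116, 0.0824 and 0.0577 in WT SP. All 4 KO DP libraries lay above all others. With no filter on low values its log2 difference passed the test, at 0.49 ± 0.07 against WT SP (SE; adjusted p = 0.00633) and 0.50 ± 0.08 against KO SP (0.0372, limma). The same setting ended the calls of Tnfsf13b (adjusted p = 0.0857) and Tnfsf14 (0.0946) against WT SP and of Tnfrsf26 against KO SP (0.0840, limma). It called 5 of 40 members higher and 1 lower against WT SP, beside 341 and 299 of 21608 genes. Against KO SP it called 4 higher and 0 lower, beside 34 and 79 genes. Tnfsf15 (TL1A), the ligand of Tnfrsf25, had 0.0768, 0.0612, 0.667 and 0.812 FPKM in KO DP and at most 0.0532 elsewhere. Tnfsf18, the ligand of Tnfrsf18, had 0.0996 to 0.549 FPKM in KO DP and at most 0.0499 elsewhere. Tnfrsf17 (BCMA), a plasma cell receptor, reached 1.20 FPKM in KO DP replicate 4. The 1118 genes of olfactory receptors, whose use by T cells is not known, averaged 0.1495 and 0.227 FPKM in KO DP replicates 3 and 4, against 0.0200 and 0.0134 in KO DP replicates 1 and 2 and at most 0.0210 in the other libraries. The part of this signal in the low members was not tested. Tnfrsf11b (osteoprotegerin), Tnfrsf19, Ltbr, Tnfsf12 and Tnfsf13 lay at or below 0.264 FPKM, and Tnfrsf12a was listed at 0 in all 10 libraries.

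Ligands and their receptors were read side by side within KO DP. For OX40, the receptor averaged 80.8 ± 38.4 FPKM and the ligand Tnfsf4 12.0 ± 3.45 (SD, n = 4). For CD27, the receptor averaged 119.6 ± 47.0 and Cd70 2.05 ± 1.63. For CD137, the receptor averaged 36.9 ± 19.5 and Tnfsf9 12.1 ± 3.54. For Cd40lg, Tnfsf11 and Tnfsf14 the receptor was the lower one, with Cd40 at 0.632 ± 0.259 beside Cd40lg at 29.0 ± 8.48, Tnfrsf11a at 0.552 ± 0.112 beside Tnfsf11 at 13.3 ± 4.74, and Tnfrsf14 at 0.983 ± 1.02 beside Tnfsf14 at 12.5 ± 6.20. Tnfsf13b averaged 2.89 ± 1.96, beside its receptors Tnfrsf13c and Tnfrsf13b at 4.41 ± 1.40 and 2.64 ± 1.24. These are mean levels in a bulk of cells and say nothing of which cell carried which.

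Downstream of the receptors, 40 genes were counted: TRAF and other adaptors, NF-kB factors and kinases, inhibitors, and the death branch. All 40 passed the filter. In KO DP against WT SP, 1 was called lower, against the share of all genes given above. Ikbkb, the kinase that releases NF-kB, was lower at 59.6, 48.1, 27.2 and 18.0 FPKM in KO DP, with 88.0 and 101 in KO SP, against 99.5, 57.0, 115 and 108 in WT SP. Its log2 difference of KO DP to WT SP was -1.38 ± 0.38 (SE; adjusted p = 0.0479, limma). Its call ended without KO DP replicate 3 or 4, either KO SP library, or WT SP replicate 1, 3 or 4 (adjusted p = 0.0745 to 0.157). After scaling 3 of the 40 were lower (Ikbkb, Ikbkg and Traf4), against 7.89% of all genes, so the count was near that share. Nfkbia, Nfkbib and Nfkb2 were among those called higher, as were 9.7% of all genes. In KO DP against KO SP none of the 40 was called as deposited or after scaling (limma). As deposited, 6 of the 40 lay at an unadjusted p under 0.05, against 2621 of 11162 genes. In KO SP against WT SP none was called by limma as deposited or after scaling, and 1 lay at an unadjusted p under 0.05 as deposited, against 384 of 11162 genes.

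Members lie in clusters in the genome. By the RefSeq gene order, 20 of the 41 fall into 8 runs of adjacent members, and 9 members lie on chromosome 4 and 8 on chromosome 17. In KO DP against WT SP, adjacent members did not always differ alike. Tnfrsf4 was called higher as deposited and its neighbour Tnfrsf18 was not. After scaling both were called higher, with log2 differences of 4.62 for Tnfrsf4 and 0.76 for Tnfrsf18. Tnfsf14 was called higher beside Cd70 and Tnfsf9, and all 3 were called higher after scaling. In the lymphotoxin cluster, Tnf and Lta were called higher after scaling and Ltb was not. Without WT SP replicate 2, Tnfrsf26, Tnfrsf22 and Tnfrsf23 were all called lower, and these 3 adjacent genes are similar in sequence, so that reads may be split among them.

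**Figure D4:**
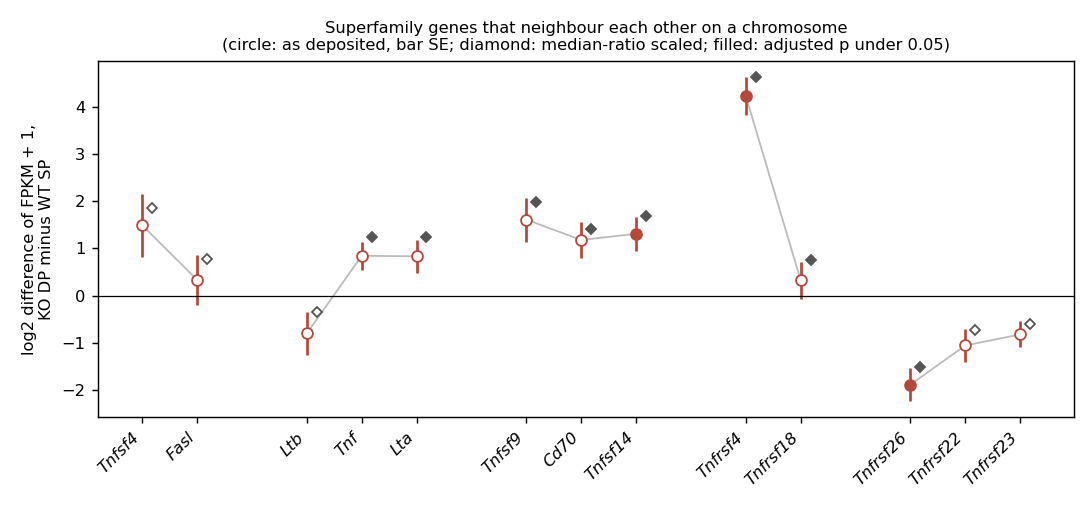
Log2 difference of FPKM + 1 in KO DP minus WT SP (vertical axis) of members that neighbour each other on a chromosome, joined by grey lines within a run. Circles with SE bars are values as deposited and diamonds values after scaling, filled where the adjusted p is under 0.05; Tnfrsf4 lies at 4.22 and its neighbour Tnfrsf18 at 0.32.

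H3K9me3 peaks were read from 1 list per library, each peak assigned by the authors to the gene with the nearest start site on mm9. The lists held 111149 and 154997 peaks in KO and 85960 and 23304 in WT. Of these, 72 and 102 were assigned to members in KO (0.0648% and 0.0658% of each list) and 68 and 46 in WT (0.0791% and 0.197%). The lists differ widely in length, and with 2 libraries against 2 the smallest exact 2-sided permutation p is 0.333, so no test was made. In all, 27 members had a peak in at least 1 list, 20 in all 4 lists, and 14 had none. The 14 include Tnfrsf4, Tnfrsf18, Tnfrsf25 and Tnfsf13b. Cd40lg had 1 peak in KO replicate 1 and 1 in WT replicate 1, both 24.2 kb from its start, and Tnfsf11 had 3 or 4 peaks in each list, none nearer than 13.4 kb. Tnfsf8 had 5 in each list, none nearer than 16.5 kb.

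Within 5 kb of a start site, 4 and 9 peaks lay in KO and 9 and 3 in WT, at 9 members. A peak upstream of Cd70 lay over an MURVY-LTR element, a viral repeat, in all 4 lists. Its centre was 1962 and 2194 bp before the start in KO and 2121 and 2132 in WT, and its authors' score was 62.6 and 59.7 in KO and 113 and 93.1 in WT. A peak 1900 to 2242 bp upstream of Tnfrsf22, over an RLTR13D3 element, was in all 4 lists too. Its score was 29.6 and 34 in KO and 46 and 30 in WT. Tnfrsf26 and Tnfrsf23 had an intronic peak in KO replicates 1 and 2 and WT replicate 1. The scores in that order were 11.2, 15.4 and 19.5 for Tnfrsf26 and 9.71, 12.6 and 11.4 for Tnfrsf23. Tnfrsf9 had an intronic peak about 2 kb from its start in KO replicate 2 and both WT lists, with a score of 10.3 in KO and 28.7 and 53.7 in WT. Scores of different lists compare only roughly, since how they were scaled is not stated in the labels or headers. The median score of the whole list was 9.22 and 9.32 in KO and 11.9 and 17.4 in WT. Tnfrsf11b had 14 and 36 assigned peaks in KO and 4 and 3 in WT. These came from lists of 111149 and 154997 peaks in KO and 85960 and 23304 in WT, so the counts do not compare directly.

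**Figure D5:**
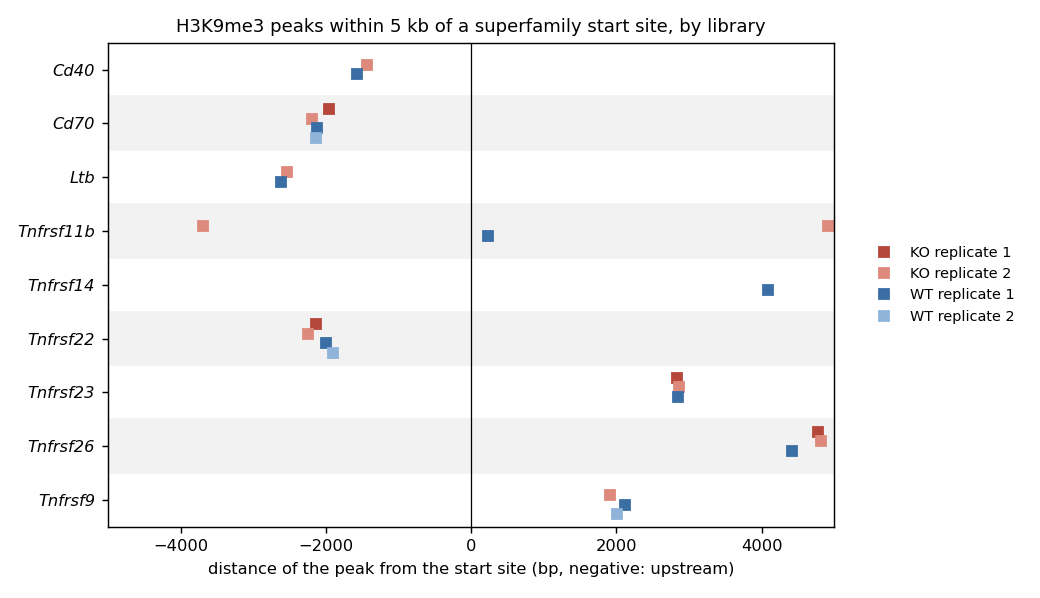
H3K9me3 peaks within 5 kb of a member's start site, by distance from the start (horizontal axis, bp, negative upstream) and by library (KO replicates 1 and 2, then WT replicates 1 and 2, within each row). Cd70 and Tnfrsf22 have a peak upstream in all 4 lists, and the WT replicate 2 list, the shortest with 23304 peaks, has 3 of the points.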

How the data were processed

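For RNA, per the labels' protocols, SMART-Seq v4 and Nextera kits were used on 5 ng of total RNA or less. Per the submitters' processing notes, TopHat and Cufflinks were used for RNA, Bowtie and HOMER for H3K9me3 ChIP, and the build was mm9; the sources used here give no versions and no strand setting, so overlapping genes cannot be told apart. The authors deposited 1 table of FPKM per gene for the 10 RNA libraries, with no counts, so that the depth is known only relatively. The authors deposited 1 H3K9me3 peak list per library, with a score per peak and the distance in bp to the nearest start site.

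The members and gene lists were chosen with earlier results of these data known. Where a symbol stood on several lines (250 symbols), its FPKM values were summed. The 11162 genes that averaged 0.5 FPKM or more entered limma 3.58.1 (R 4.3.3) with a mean-variance trend on log2(FPKM + 1), 1 spread shared by the 3 groups, and Benjamini-Hochberg adjustment at 0.05. The pseudocount of 1 understates fold changes of low genes. Fold changes are given for Tnfrsf4, Cd40lg, Tnfsf11, Tnfsf8, Tnfrsf18 and every member called in a comparison. Other members are given by FPKM, except Tnfrsf11a, whose difference without a filter was chosen after its values were seen. The fit was tested on simulated data. Alternatives were median-ratio scaling, other pseudocounts and filters, no trend, the compared groups alone, title ranges, replicate blocks and leaving out each library. Scaling divides each library by the median ratio of its genes to their geometric mean.

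Replicate numbers in the sample descriptions occur in both KO DP and WT SP. Deviations from the group means of same-numbered libraries correlated at 0.119, 0.293, 0.111 and 0.103 across genes, all above 0.1, and the numbers were taken to pair them, although KO DP replicates 3 and 4 each correlated more with the other's partner (0.201 and 0.243), and numbers and title ranges go together. Samples were grouped by the labels. Promoter sequences came from RefSeq (GRCm38.p6), and 10 members without an entry are named by gene only. The result of 1 downstream gene is not reported here.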

Additional observations from a re-analysis of the deposited data

Results flagged for a closer look

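WT SP replicate 2 lay far from the other WT SP libraries in 4 members. They were Tnfrsf9 at 118 FPKM, Tnfrsf1b at 104 FPKM, Tnfsf4 at 25.2 FPKM and Tnfrsf4 at 7.52 FPKM. In KO DP, replicate 2 lay far from the others for Tnfrsf14, at 2.50 FPKM. Chance alone marks about 1 in 20 groups in this way, and 60 groups of 4 libraries were looked at.

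The difference of KO DP to WT SP was smaller or more negative in titles 738 to 741 than in titles 34 to 37 for 6 of the 30 members, tested as an interaction (limma, adjusted p = 0.0380 to 0.0424). The difference between the ranges, on the log2 scale, was -1.89 for Tnfrsf18, -1.86 for Ltb, -1.76 for Tnfsf8, -1.50 for Fas, -1.34 for Tnfrsf1a and -1.31 for Cd27. Of all genes, 22.9% passed the same test. After median-ratio scaling, 0 members and 35 genes passed, with 1 member at an unadjusted p under 0.05. Titles 738 to 741 hold the KO DP libraries with the low FPKM sums.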

How the results depend on the processing

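The count of 7 members in KO DP against WT SP became 14 after median-ratio scaling, 12 with scaling and the replicate block (against 1034 genes higher and 1118 lower of 11162), 12 with the title range as a term (641 higher and 1482 lower), 3 in titles 34 to 37 alone and 18 in titles 738 to 741 alone, and ran from 5 to 13 when single libraries were left out. The count of 4 in KO DP against KO SP became 8 after scaling and 16 in titles 738 to 741, and ran from 2 to 5 without single libraries. The count of 0 in KO SP against WT SP held under every alternative run, 0 to 0 without single libraries. The count of 6 members whose difference varied between title ranges became 0 after scaling and ran from 0 to 12 without single libraries. It was 0 without KO DP replicate 1 or 2, either KO SP library, or WT SP replicate 2, 3 or 4, then 3 without KO DP replicate 4 and 12 without KO DP replicate 3, against 1977 and 6906 of 11162 genes. The difference of KO to WT in the share of H3K9me3 peaks at members was -0.073 percentage points, and -0.132 to -0.0138 without single libraries. The causes were not tested.

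With the replicate number of the descriptions as a block, 9 members were called in KO DP against WT SP, beside 1435 of 11162 genes. There were 4 in KO DP against KO SP, beside 583 genes, and 0 in KO SP against WT SP, beside 346 genes. For KO SP this block crosses the title ranges: its libraries, titled 738 and 739, share replicate numbers with libraries of the other range. The KO DP libraries titled 738 and 739 fall into other blocks. Pairing by these replicate numbers was examined for KO DP with WT SP only, so the counts for KO SP do not show an effect of pairing. With the title numbers 738 and 739 as a replicate block, 13 members were called in KO DP against KO SP (4 higher and 9 lower, against 495 and 4092 of 11162 genes). Deviations of KO DP and KO SP libraries sharing a title number correlated at 0.143 and 0.0908.

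Signs turned in 22 cases, all of differences that were not called as deposited. In KO DP against WT SP, Tnfrsf18 lay at -0.62 in titles 738 to 741. Tnfsf8 lay at 0.14 after scaling with or without the block, 0.59 in titles 34 to 37 and 0.10 with KO DP replicates 1 and 2 only. In KO DP against KO SP, Tnfrsf18 lay at 0.30 after scaling, 0.43 with KO DP replicates 1 and 2 only and -0.51 to 0.0331 without single libraries (positive without KO DP replicate 4), and Tnfsf8 at 0.0255 after scaling. In KO SP against WT SP, Tnfrsf26 lay at -0.0265 after scaling, -0.27 in titles 738 to 741 and -0.20 to 0.26 without single libraries (negative without WT SP replicate 2). Tnfrsf4 lay at -0.0522 after scaling, -0.39 with the block, and -0.0881 to 0.40 without single libraries (negative without KO SP replicate 2 or WT SP replicate 1, 3 or 4). Tnfsf13b lay at -0.0149 with the block and -0.10 to 0.82 without single libraries (negative without KO SP replicate 1). In this comparison the block joins the KO SP libraries to libraries of the other title range. Tnfsf8 lay at -0.26 in titles 738 to 741 and -0.12 to 0.47 without single libraries (negative without WT SP replicate 2). Of the other values of single genes, 541 stayed on their side of the threshold, 61 lost it and 7 gained it. KO DP replicates 1 and 2 only, scaling with the block, and the alternatives to the title-range test were chosen after seeing the data.

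FPKM without counts gives no counting error, so the precision of members near 0 is unknown. KO SP has 2 libraries, and leaving 1 out assumes that the other varies like the remaining groups.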
